A study of Homo sapiens with 6 samples.

Results

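The long non-coding RNAs (lncRNAs) described here carry the name of a neighbouring gene followed by the suffix -AS, for antisense, and mostly a digit. They were chosen by name and annotated type alone, as genes of type lincRNA (intergenic lncRNA) or processed_transcript (non-coding transcript) whose name ends in that suffix. This gave 58 lncRNAs of the 12385 genes measured, 36 of type lincRNA and 22 of type processed_transcript. For 46 of them the protein-coding gene named before the suffix, called the partner gene here, was also measured. The 12 others, such as PAX8-AS1, ZNF674-AS1 and HOXC-AS2, are described without a partner. All values come from MKN-74, an established human gastric cancer cell line with epithelial-like growth, of which stable lines were made with lentivirus. LV-HOXD9 cells overexpressed HOXD9, a homeobox transcription factor. LV-Vector cells carried the lentivirus without HOXD9 and are otherwise wild type by their label. The lentivirus, with an insertion site behind an element labelled Ubi, carried green fluorescent protein and a puromycin resistance gene, so both groups share the virus, these 2 proteins and selection with puromycin at 10 μg/ml for more than 14 days. Each group had 3 libraries, labelled as biological replicates 1 to 3. The sources used here do not say whether they came from separate infections or from cultures of 1 infected line, so p-values measure the spread between these libraries. RNA levels are given in FPKM, the number of sequenced fragments scaled to transcript length and to library size, and every difference is LV-HOXD9 minus LV-Vector.

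Antisense lncRNAs are transcribed from the strand opposite to a protein-coding gene. Some start within that gene or run into it, so that both RNAs share sequence. Others start just upstream of it and run the other way, because many human promoters rich in CG dinucleotides fire in both directions. RNAs of this kind are known to be often of low level and mostly nuclear, and a few are known to act on the gene beside them or to host small nucleolar RNAs. PAXIP1-AS1 is the lncRNA that the study of these cells is about, and a name spelled APCODD1L-AS1 in it was taken as APCDD1L-AS1. By fractionation of MKN-74 cells, the study found more PAXIP1-AS1 in the cytoplasmic part than in the nuclear part.

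In the coordinates of the deposited table (GRCh37), the lncRNA and its partner lay on opposite strands in all 46 pairs, but the gene bodies overlapped in only 20. In 25 pairs the 2 genes stood head-to-head without overlap, with starts 1 to 707 bp apart (median 143). In 13 pairs the 5′ ends overlapped, with starts 108 to 3119 bp apart (median 924). In 4 pairs the lncRNA lay inside its partner (EML2-AS1, MKLN1-AS, PCF11-AS1, SEC23A-AS1), in 2 the 3′ ends overlapped (LRRC75A-AS1, OIP5-AS1), and CBR3-AS1 held its partner inside it. IGFL2-AS1 and IGFL2 stood tail-to-tail with 27866 bp between them. Starts were within 1000 bp of each other in 34 of the 46 pairs. RefSeq now names 18 of the 58 as divergent transcripts (suffix -DT) and keeps an -AS name for 38. Of the 18 divergent transcripts, 17 were in head-to-head pairs. Exons of lncRNA and partner shared bases in 19 pairs (GENCODE 29). The library kit keeps strand, but the sources used here do not state that strand was used when fragments were assigned, so fragments from the 2 genes of an overlapping pair may not have been kept apart.

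A promoter window, 250 bases before to 50 bases after the start, was found in RefSeq (GRCh38.p14) for 38 of the 58. These windows had a median of 71.3% G and C bases and 31.5 CG dinucleotides, against 58.7% and 14 over all 35116 RefSeq promoters. The letters TTTAT, the core that posterior HOX proteins such as HOXD9 prefer, were found on either strand in 4 of the 38 (10.5%), against 34.9% of all promoters. The related TTTAC was found in 5 (13.2%), against 28.1%, and CCAAT, a common promoter element, in 13 (34.2%), against 34.6%. Matches of these motifs may share bases. A match or its absence in these short windows describes the letters only.

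**Figure D1:**
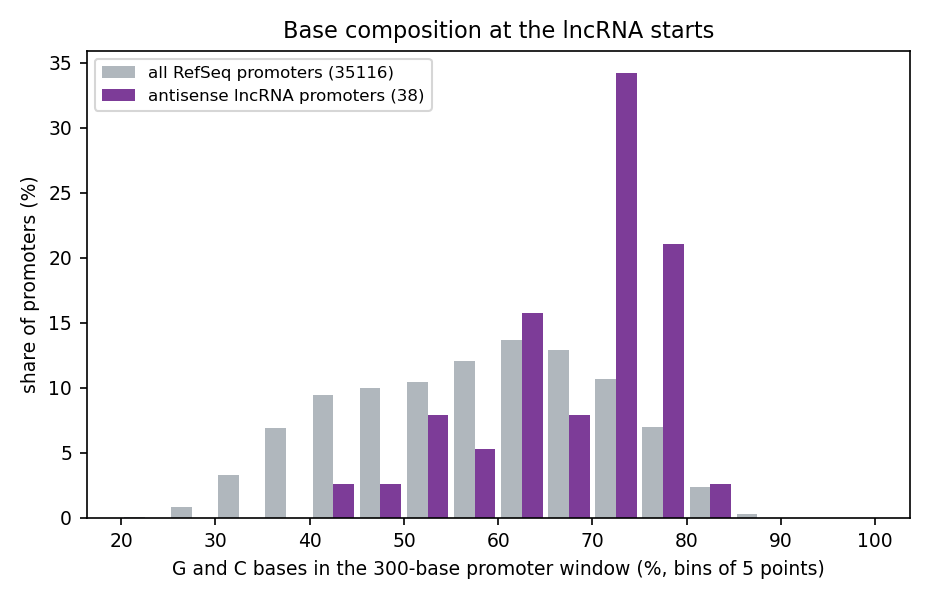
Share of promoters (y axis, %) by the share of G and C bases in the promoter window (x axis, %, bins of 5 points). Grey bars are all 35116 RefSeq promoters and purple bars the 38 promoters of antisense lncRNAs, whose median was 71.3% against 58.7%.

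The bases just upstream of the lncRNA start are printed for head-to-head pairs described below, because this stretch lies between the starts of both genes. They lie within 250 bases of the RefSeq start and are cut at exons of GENCODE 29. Where such an exon reaches upstream of the RefSeq start, the printed bases end before it. This is 162 bases before the RefSeq start for BAIAP2-AS1, 52 for MNX1-AS1 and 5 for GMDS-AS1. The 88 bases of BAIAP2-AS1 are only part of the 240 bp between the 2 genes (GRCh37). CG dinucleotides are in capitals. For 4 pairs in which the lncRNA was lower in LV-HOXD9 and for MNX1-AS1 they read, 5′ to 3′ on the lncRNA's strand:
PAXIP1-AS1 (GRCh38.p14, chr7:155003183-155003432, plus strand): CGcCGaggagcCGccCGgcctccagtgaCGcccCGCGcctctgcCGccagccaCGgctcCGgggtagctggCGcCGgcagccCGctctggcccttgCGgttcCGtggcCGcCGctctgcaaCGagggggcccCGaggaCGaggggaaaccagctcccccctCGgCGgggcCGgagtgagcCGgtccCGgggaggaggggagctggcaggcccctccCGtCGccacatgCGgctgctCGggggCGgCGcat
DNAJC3-AS1 (GRCh38.p14, chr13:95676926-95677138, minus strand): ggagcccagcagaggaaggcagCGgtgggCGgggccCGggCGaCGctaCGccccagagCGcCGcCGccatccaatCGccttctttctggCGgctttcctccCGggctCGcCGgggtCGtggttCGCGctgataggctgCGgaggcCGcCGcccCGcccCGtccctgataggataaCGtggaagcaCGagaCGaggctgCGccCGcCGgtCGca
USP46-AS1 (GRCh38.p14, chr4:52659336-52659405, plus strand): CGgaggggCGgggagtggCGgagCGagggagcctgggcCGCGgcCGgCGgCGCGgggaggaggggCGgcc
GMDS-AS1 (GRCh38.p14, chr6:2245693-2245747, plus strand): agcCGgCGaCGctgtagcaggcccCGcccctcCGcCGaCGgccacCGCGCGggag
MNX1-AS1 (GRCh38.p14, chr7:157010652-157010804, plus strand): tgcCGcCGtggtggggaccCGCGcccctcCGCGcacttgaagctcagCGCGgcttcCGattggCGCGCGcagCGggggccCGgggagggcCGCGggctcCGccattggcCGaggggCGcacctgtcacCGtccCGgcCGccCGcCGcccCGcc
These 5 stretches held 31, 29, 11, 10 and 25 CG dinucleotides in 250, 213, 70, 55 and 153 bases, and none held TTTAT or TTTAC. The longer promoter window of USP46-AS1 did hold 1 TTTAC match, outside the 70 bases printed. In the study, chromatin immunoprecipitation and a promoter mutation placed a HOXD9 site of PAXIP1-AS1 farther upstream, outside the bases printed here. For 2 head-to-head pairs in which the partner had the higher level in LV-HOXD9 the stretches were:
BAIAP2-AS1 (GRCh38.p14, chr17:81034882-81034969, minus strand): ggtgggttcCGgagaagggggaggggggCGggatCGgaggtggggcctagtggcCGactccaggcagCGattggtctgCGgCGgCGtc
GTSE1-AS1 (GRCh38.p14, chr22:46296661-46296740, minus strand): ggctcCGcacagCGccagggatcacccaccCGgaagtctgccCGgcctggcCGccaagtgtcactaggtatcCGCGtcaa
They held 8 and 7 CG dinucleotides in 88 and 80 bases. OIP5-AS1, whose start lies 48631 bp from that of its partner, is shown as the 1 of the 38 with both HOX-like cores, here in capitals too, with TTTAT read on the other strand as ATAAA:
OIP5-AS1 (GRCh38.p14, chr15:41283740-41283989, plus strand): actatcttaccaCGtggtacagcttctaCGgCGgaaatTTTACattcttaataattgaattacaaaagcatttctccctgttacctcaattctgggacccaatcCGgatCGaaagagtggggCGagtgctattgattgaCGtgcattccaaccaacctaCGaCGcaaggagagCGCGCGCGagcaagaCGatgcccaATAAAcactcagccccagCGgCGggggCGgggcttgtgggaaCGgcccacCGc
Its 250 bases held 52.8% G and C bases and 19 CG dinucleotides. Promoters of APCDD1L-AS1 and IGFL2-AS1 were not read.

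HOXD9 stood at 26.4 to 31.3 FPKM with the HOXD9 lentivirus and at 0 to 0.0413 FPKM without it, so the labels held, although these values do not separate the inserted gene from the cells' own. All 5 epithelial markers examined were listed, with sums of 954 to 977 FPKM (LV-HOXD9) and 799 to 907 FPKM (LV-Vector). Of the gastric and intestinal markers 3 of 9 were listed (CDX2, TFF1, VIL1), with sums of 71.1 to 78.4 and 71.1 to 79.5 FPKM. Listed too were 1 of 4 fibroblast markers (COL1A1, 0.924 to 1.05 and 1.00 to 1.22 FPKM) and 0 of 3 endothelial markers. Their part in the results was not tested, and in bulk RNA fewer cells with an RNA and less of it per cell cannot be told apart. Depth is unknown, since the tables hold no read counts. 2 libraries stood apart. Over 12287 genes, the deviation of a gene from its own mean followed its GC content with a Spearman correlation of 0.652 for LV-HOXD9 replicate 3 and -0.596 for LV-Vector replicate 2. The other 4 libraries had values of -0.289 to 0.231. The difference between groups followed GC content too, with a correlation of 0.424 over all genes and 0.240 over 57 of the antisense lncRNAs. Calls by the study's criterion and medians over all lncRNAs or all partners are therefore also given without these 2 libraries. So are ratios within a library and signs of pairs. Counts of groups without overlap, medians by arrangement and most transcript values are given for all 6 libraries only.

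Most antisense lncRNAs were slightly lower in LV-HOXD9, but few beyond the spread between libraries. Their summed level was 138, 134 and 141 FPKM (LV-HOXD9) against 149, 153 and 157 FPKM (LV-Vector), so the groups did not overlap. Of the 58, 44 had a lower mean of log2(FPKM + 1) in LV-HOXD9 (75.9%) and 14 a higher one, and the median difference was -0.09. Of the 44, 5 reached the table's limit of 0.5 FPKM only in LV-Vector, so they had to be lower. Of the 14, 1 reached it only in LV-HOXD9. Over all 12385 genes, 396 and 114 were kept in these ways. TOB1-AS1, 1 of the 5, is also among the 10 and the 14 lower lncRNAs counted below. The mean was lower for 65.6% of the other 663 genes of the same types and for 59.9% of all genes. The median was -0.08 over the 663 other genes of the same types, -0.06 over the 46 partner genes, and -0.04 over all 12385 genes. With limma, a linear model whose variances are moderated across genes, 0 of the 58 lncRNAs and 0 of the 46 partner genes passed an adjusted p of 0.05, where 25 of all 12385 genes did (0.202%). At an unadjusted limma p under 0.05, 10 lncRNAs were lower (17.2%) and 1 was higher (1.72%), where 11.9% of all genes were lower and 7.12% higher. The criterion stated in the study is a fold change over 1.2 with an unadjusted p under 0.05. This criterion was applied here with an ordinary linear model and with fold changes on the log2(FPKM + 1) scale. By it, 4 lncRNAs were lower (6.90%) and 0 higher, where 4.6% of all genes were lower and 1.94% higher. They were APCDD1L-AS1, PAXIP1-AS1, DNAJC3-AS1 and IGFL2-AS1. GMDS-AS1, RALY-AS1 and TOB1-AS1 were also lower with an unadjusted p under 0.05 from that model. Their LV-HOXD9 means were 70.9%, 76.2% and 64.7% of LV-Vector, but the added 1 brought them under the fold threshold. With a pseudocount of 0.1 they met the criterion. The libraries of the 2 groups did not overlap for 14 lncRNAs, all lower in LV-HOXD9 (24.1%), where 17.5% of all genes were lower without overlap and 10.9% higher. These shares are given as a description. With quantile normalisation in place of the deposited scaling, lower genes made up 51.2% of the calls by the study's criterion in place of 70.4%, 30 of the 58 lncRNAs in place of 44 were lower, and their median difference was -0.01.

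**Figure D2:**
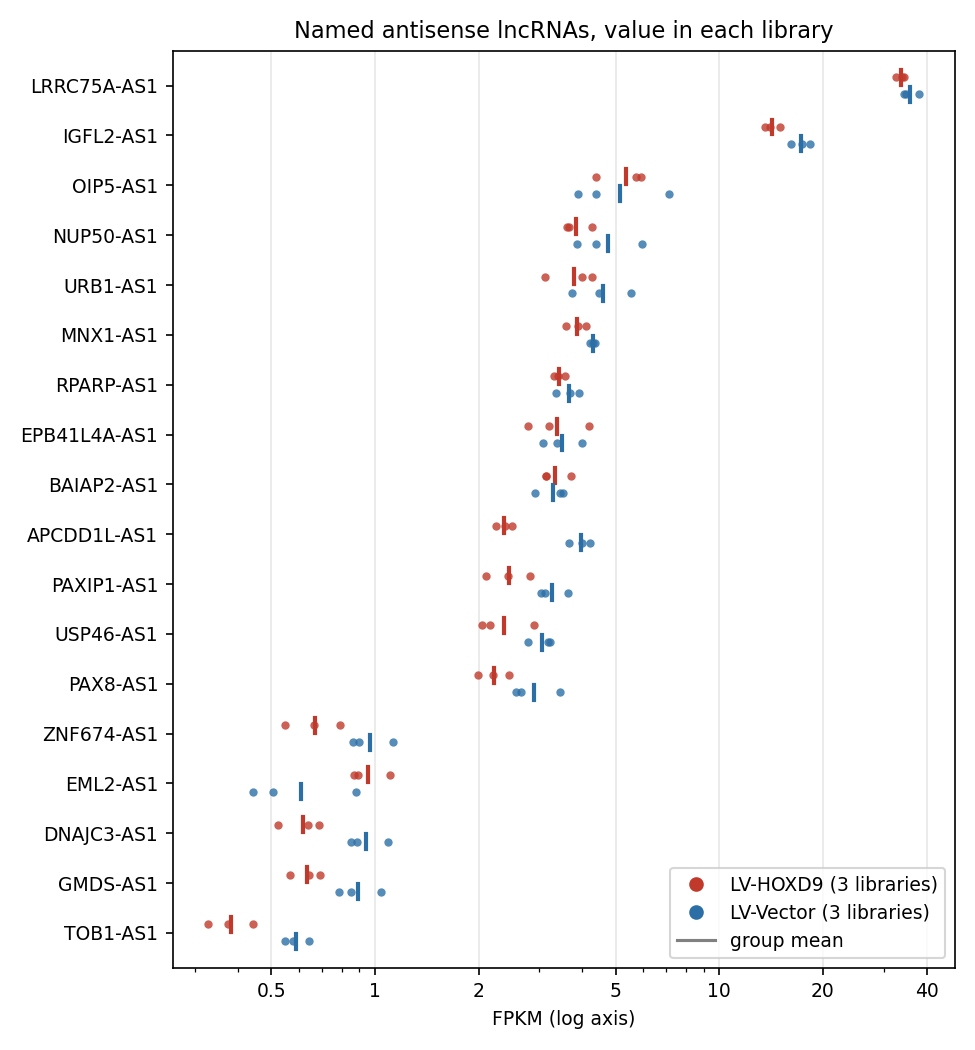
FPKM (x axis, log scale) of 18 lncRNAs named by rule, in LV-HOXD9 (red) and LV-Vector (blue), with 3 points for the libraries of a group and a vertical bar at the group mean. APCDD1L-AS1 sits between 2.24 and 2.50 FPKM in LV-HOXD9, below the 3.67 to 4.21 of LV-Vector.

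APCDD1L-AS1 was the antisense lncRNA with the smallest p, and its pair was the only one in which both genes had an unadjusted limma p under 0.05. It lies at chr20:57090435-57194944 (GRCh37, plus strand, up to 7 exons), with its start 248 bp from that of APCDD1L on the minus strand. APCDD1L is named for its likeness to APCDD1, an inhibitor of Wnt signalling. APCDD1L-AS1 was measured at 2.24, 2.50 and 2.38 FPKM (LV-HOXD9) against 4.21, 4.0 and 3.67 FPKM (LV-Vector). The highest LV-HOXD9 library was thus below the lowest LV-Vector library, with means of 2.38 ± 0.13 and 3.96 ± 0.27 FPKM (SD, n = 3). The difference was -0.55 on the log2(FPKM + 1) scale (SE 0.08), and its limma p adjusted over all genes was 0.0569, just over the threshold. APCDD1L was measured at 2.56, 2.91 and 3.25 FPKM (LV-HOXD9) against 4.41, 4.05 and 3.81 FPKM (LV-Vector), also without overlap. Its LV-HOXD9 mean was 71.0% of that of LV-Vector, a difference of -0.38 (SE 0.09, adjusted p = 0.152 from limma). On FPKM, which corrects for length, the pair stood close to equal, with 3.17 FPKM for the lncRNA and 3.50 FPKM for its partner over all 6 libraries. Within a library, the log2 ratio of lncRNA to partner was -0.13, -0.16 and -0.33 in LV-HOXD9 and -0.05, -0.01 and -0.04 in LV-Vector. The ratio was lower in all 3 LV-HOXD9 libraries, with a difference of -0.17 (SE 0.06, exact permutation p = 0.10, the smallest p that 3 libraries against 3 allow). After removal of the trends with GC content and length, the adjusted limma p was 0.0249 for APCDD1L-AS1 and 0.0427 for APCDD1L. This setting was added after seeing the data, and 310 of all genes passed in it in place of 25. It was the 1 setting of 14 in which either gene passed the adjusted threshold.

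PAXIP1-AS1, the lncRNA the study examined in most detail, lies at chr7:154795158-154797413 (GRCh37, plus strand), a single exon of which 1 transcript was measured. Its start is 364 bp from that of PAXIP1, a protein with BRCT domains that works with histone methyltransferases and in the DNA damage response. The levels of PAXIP1-AS1 were 2.10, 2.43 and 2.83 FPKM (LV-HOXD9) against 3.64, 3.12 and 3.03 FPKM (LV-Vector). The groups did not overlap, but LV-HOXD9 replicate 3 and LV-Vector replicate 3 lay close together. The LV-HOXD9 mean was 75.2% of the LV-Vector mean, a difference of -0.31 (SE 0.10, adjusted p = 0.214 from limma). PAXIP1 was measured at 4.05, 4.18 and 3.52 FPKM (LV-HOXD9) against 4.19, 4.96 and 4.56 FPKM (LV-Vector). Here too the groups did not overlap, though 4.18 and 4.19 FPKM stood side by side at their border, and the difference of -0.18 (SE 0.09) had an adjusted p of 0.311 from limma. The log2 ratio of PAXIP1-AS1 to PAXIP1 was -0.70, -0.60 and -0.24 in LV-HOXD9 and -0.16, -0.53 and -0.47 in LV-Vector, which overlapped (difference -0.13, SE 0.18, exact permutation p = 0.50). A difference in the size of the change between the 2 genes was thus not detectable with these libraries.

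**Figure D3:**
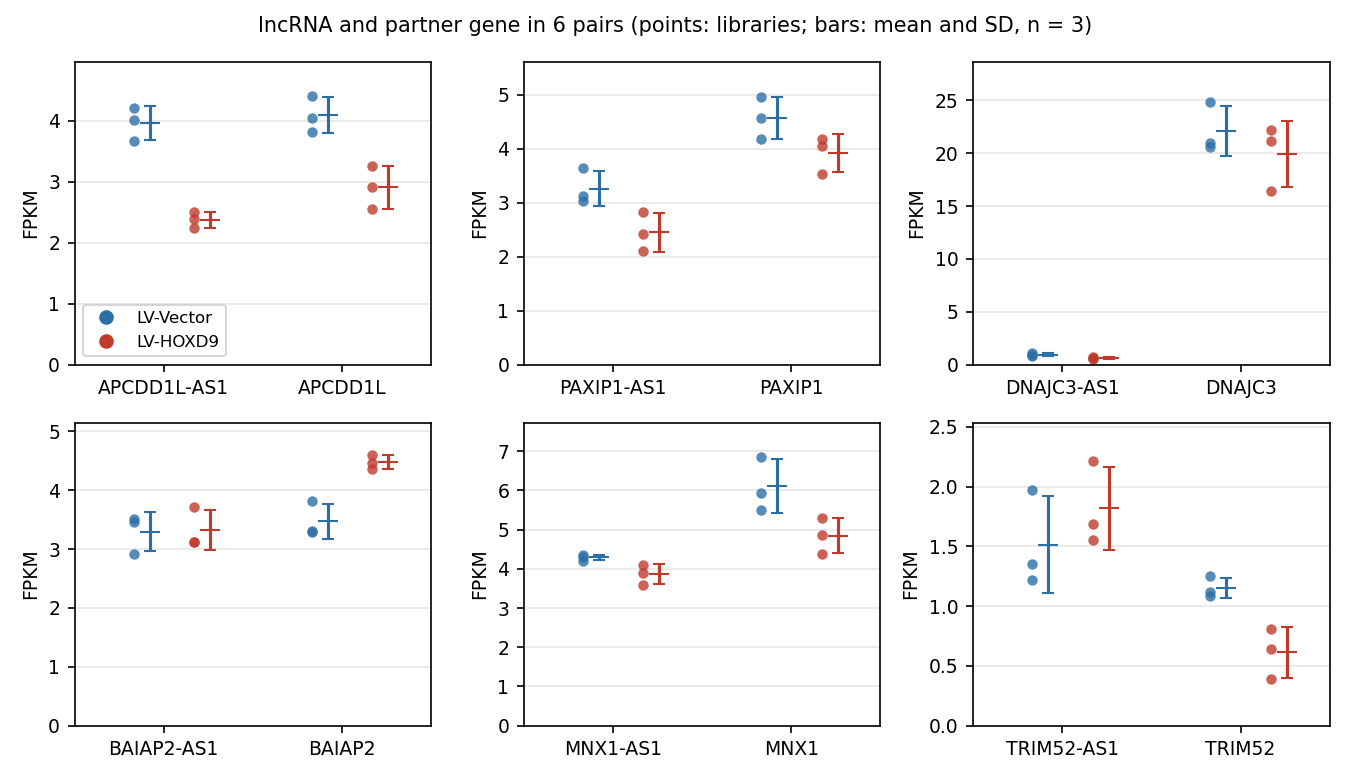
FPKM (y axis, from 0) of the lncRNA and its partner gene in 6 head-to-head pairs, in LV-Vector (blue) and LV-HOXD9 (red), with points for the 3 libraries of a group and a bar for mean and SD. Both genes of the APCDD1L pair are lower in LV-HOXD9, BAIAP2 is higher while BAIAP2-AS1 is not, and TRIM52 is lower while TRIM52-AS1 is not.

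The other 2 lncRNAs past the study's criterion differed in level and place. DNAJC3-AS1 lies at chr13:96300987-96329179 (GRCh37, minus strand), with its start 214 bp from that of DNAJC3, a co-chaperone of the endoplasmic reticulum. It was measured at 0.523, 0.640 and 0.686 FPKM (LV-HOXD9) against 1.09, 0.889 and 0.853 FPKM (LV-Vector). The groups did not overlap, and the LV-HOXD9 mean was 65.3% of that of LV-Vector. At this low level the added 1 compresses the change to -0.27 (SE 0.08, adjusted p = 0.197 from limma), where adding 0.1 gave -0.54. DNAJC3 itself, at 16.4 to 22.2 FPKM (LV-HOXD9) against 20.6 to 24.9 FPKM (LV-Vector), overlapped between groups (difference -0.15, SE 0.13). IGFL2-AS1 lies at chr19:46692423-46706340 (GRCh37, minus strand), far from IGFL2, which encodes a secreted protein of the insulin growth factor-like family. It was measured at 15, 13.6 and 14.1 FPKM (LV-HOXD9) against 16.2, 18.4 and 17.4 FPKM (LV-Vector). The groups did not overlap, and the difference was -0.26 (SE 0.07, adjusted p = 0.173 from limma), at 82.3% of LV-Vector. IGFL2 ranged from 0.763 to 1.70 FPKM (LV-HOXD9) against 0.430 to 1.38 FPKM (LV-Vector), with overlap.

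Of these 4, only APCDD1L-AS1 met the study's criterion under all 14 other settings tried, with a difference of -0.71 to -0.46 and an adjusted limma p of 0.0249 to 0.220. PAXIP1-AS1 met it in 5 of 14, IGFL2-AS1 in 7 of 14 and DNAJC3-AS1 in 6 of 13. PAXIP1-AS1 missed it when any 1 library other than LV-HOXD9 replicate 3 was left out, with a difference between -0.35 and -0.23. It was -0.23 without LV-HOXD9 replicate 1, -0.24 without LV-Vector replicate 1, -0.30 without LV-HOXD9 replicate 2, -0.33 without LV-Vector replicate 2 and -0.35 without LV-Vector replicate 3. With the 2 libraries that followed GC content left out, 4 lncRNAs again met the criterion, namely APCDD1L-AS1, RALY-AS1, TNRC6C-AS1 and USP46-AS1, so 1 was shared with the 4 named above. The values of that setting were -0.55 for APCDD1L-AS1, -0.41 for PAXIP1-AS1, -0.32 for DNAJC3-AS1 and -0.21 for IGFL2-AS1. DNAJC3-AS1 missed it when LV-HOXD9 replicate 1 (-0.22) or 2 (-0.28) was left out, and likewise for LV-Vector replicate 1 (-0.21). IGFL2-AS1 missed it without LV-HOXD9 replicate 2 (-0.23) or 3 (-0.26), or without LV-Vector replicate 2 (-0.22) or 3 (-0.26). After removal of the GC and length trends, APCDD1L-AS1 alone met it.

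Lower levels with weaker statistics were found for 6 further lncRNAs, each with an unadjusted limma p under 0.05. TOB1-AS1, which overlaps the 5′ end of TOB1, an antiproliferative gene, was measured at 0.328, 0.375 and 0.442 FPKM (LV-HOXD9) against 0.644, 0.548 and 0.576 FPKM (LV-Vector) (difference -0.20, SE 0.07, adjusted p = 0.218 from limma). The groups did not overlap, but this gene is in the table only through its level in LV-Vector. GMDS-AS1, which starts 56 bp from GMDS, an enzyme of GDP-fucose synthesis, was measured at 0.567, 0.641 and 0.691 FPKM (LV-HOXD9) against 0.788, 1.04 and 0.849 FPKM (LV-Vector), again without overlap (difference -0.21, SE 0.08, adjusted p = 0.239 from limma). GMDS, at 15.1 ± 1.5 and 15 ± 1.5 FPKM (SD, n = 3), differed by 0.01 (SE 0.10). ZNF674-AS1, named for a zinc-finger gene, stood at 0.668 ± 0.12 FPKM (LV-HOXD9) against 0.964 ± 0.15 FPKM (LV-Vector) (SD, n = 3), without overlap. PAX8-AS1, named for the paired-box transcription factor PAX8, stood at 1.99, 2.44 and 2.2 FPKM against 2.56, 3.45 and 2.66 FPKM, without overlap (difference -0.27, SE 0.11, adjusted p = 0.252 from limma). USP46-AS1, which starts 71 bp from the deubiquitinase gene USP46, was measured at 2.05, 2.16 and 2.89 FPKM against 2.77, 3.22 and 3.18 FPKM, so LV-HOXD9 replicate 3 lay within the LV-Vector range. RALY-AS1, outside the rule for named genes and chosen after its values were seen, stood at 0.993 ± 0.016 FPKM against 1.30 ± 0.19 FPKM. EML2-AS1 was the 1 lncRNA higher at this level. It lies inside EML2, a gene for a microtubule-binding protein, and was measured at 1.1, 0.890 and 0.871 FPKM (LV-HOXD9) against 0.442, 0.504 and 0.881 FPKM (LV-Vector), with overlap through LV-Vector replicate 3 (difference 0.29, SE 0.12, adjusted p = 0.257 from limma). Its exons share 1173 bases with those of EML2 (GENCODE 29), which stood at 6.61 FPKM over all libraries. Fragments of EML2 may therefore be part of its value.

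Partner genes differed in both directions. By the study's criterion, 3 were lower (APCDD1L, TRIM52, PCF11) and 1 was higher (BAIAP2) of 46, or 6.52% and 2.17%, beside the 4.6% and 1.94% of all genes. Other than APCDD1L and BAIAP2 these are outside the rule for named genes and were chosen after their values were seen. BAIAP2, an adaptor protein of the actin cytoskeleton, was measured at 4.47, 4.60 and 4.36 FPKM (LV-HOXD9) against 3.29, 3.31 and 3.81 FPKM (LV-Vector). The groups did not overlap, and the difference was 0.29 (SE 0.08, adjusted p = 0.165 from limma). BAIAP2-AS1, which starts 241 bp away, stood at 3.13, 3.13 and 3.71 FPKM against 3.51, 2.91 and 3.45 FPKM (difference 0.01, SE 0.09). TRIM52, a RING-finger protein, was measured at 0.645, 0.806 and 0.387 FPKM (LV-HOXD9) against 1.25, 1.12 and 1.09 FPKM (LV-Vector), 53.1% of the vector level (difference -0.43, SE 0.11, adjusted p = 0.162 from limma). TRIM52-AS1, which starts 73 bp away, stood at 1.56, 1.69 and 2.21 FPKM against 1.35, 1.97 and 1.22 FPKM, with overlap. PCF11, a factor of transcript cleavage and termination, stood at 5.66 ± 0.46 FPKM against 7.01 ± 0.47 FPKM (SD, n = 3). PCF11-AS1, a single-exon lncRNA inside it whose 1516 bases all lie in exons of PCF11, stood at 0.368 ± 0.17 FPKM against 0.576 ± 0.074 FPKM, with overlap. The calls of BAIAP2 and APCDD1L each held in 11 of 14 other settings, that of PCF11 in 8 of 14 and that of TRIM52 in 6 of 13. PCF11 lost it without LV-HOXD9 replicate 3 (-0.21), LV-Vector replicate 2 (-0.22) or LV-Vector replicate 3 (-0.29). TRIM52 lost it without LV-HOXD9 replicate 1 (-0.44) or without LV-Vector replicate 1 (-0.39), 2 (-0.44) or 3 (-0.45). With the 2 libraries that followed GC content left out, UBAC2, a protein of the endoplasmic reticulum, was the 1 partner lower and 0 were higher. The differences were then -0.45 for APCDD1L, 0.28 for BAIAP2, -0.33 for TRIM52 and -0.16 for PCF11, with 2 libraries a group.

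At an unadjusted limma p under 0.05, 6 partner genes were lower (APCDD1L, TRIM52, PCF11, MNX1, RAB30, UBAC2) and 6 higher (GTSE1, BAIAP2, OSER1, YTHDF3, OIP5, PSMB8), or 13% each, beside 11.9% and 7.12% of all genes. RAB30, at 0.480 ± 0.066 against 0.701 ± 0.099 FPKM (SD, n = 3), is in the table only through its level in LV-Vector, so its direction is no result. Of these 12 partners, 8 had the sign of their lncRNA, with RAB30, PCF11, GTSE1 and BAIAP2 among the 8. In the pairs of RAB30, PCF11 and GTSE1 a gene is in the table through 1 group only, so the shared sign is no result. BAIAP2-AS1 differed by only 0.01 (SE 0.09). Partners not beside a lncRNA named by rule, GTSE1 and YTHDF3 among them, are named because they are among the 12. MNX1, a gene of the homeobox class, had levels of 4.85, 4.39 and 5.29 FPKM (LV-HOXD9) against 6.86, 5.51 and 5.94 FPKM (LV-Vector), without overlap (difference -0.28, SE 0.10, adjusted p = 0.220 from limma). With the GC and length trends removed, 1 of 14 other settings, the adjusted limma p of MNX1 was 0.0419. MNX1-AS1, which starts 154 bp away, stood at 3.89, 3.59 and 4.11 FPKM against 4.36, 4.21 and 4.30 FPKM, also without overlap but closer (difference -0.12, SE 0.07, adjusted p = 0.373 from limma). GTSE1, a microtubule-binding protein of dividing cells, was measured at 22.3, 21.3 and 21.4 FPKM (LV-HOXD9) against 18.9, 17.3 and 18.4 FPKM (LV-Vector), without overlap (difference 0.24, SE 0.06, adjusted p = 0.156 from limma). GTSE1-AS1, a single-exon lncRNA 81 bp away, had 0.702 ± 0.045 FPKM against 0.462 ± 0.20 FPKM, with overlap. YTHDF3, a reader of methylated adenosine in RNA, had the largest difference among the partners (0.99, SE 0.36), but its libraries ranged from 5.79 to 10.4 FPKM (LV-HOXD9) against 1.85 to 6.0 FPKM (LV-Vector), with overlap. OIP5, which helps to load the centromeric histone, was higher without overlap, at 13.6, 13.6 and 13.5 FPKM against 11.6, 12.8 and 11.6 FPKM. OIP5-AS1, whose 3′ end overlaps that of OIP5, spread from 4.38 to 5.94 FPKM and from 3.88 to 7.16 FPKM.

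LncRNAs and partners shared a direction in 24 of the 46 pairs. Pairs with a gene in the table through 1 group only are counted, although the direction of that gene is no result. In 19 of the 46 pairs both genes had the lower mean in LV-HOXD9, in 5 both the higher, in 16 the lncRNA was lower and the partner higher, and in 6 the reverse. Across the 46 pairs, the difference of the lncRNA and that of its partner had a Spearman correlation of 0.241 (Pearson 0.20), given as a description, since the pairs share the same 6 libraries. Without LV-HOXD9 replicate 3 and LV-Vector replicate 2, 19 pairs had the same sign and the Spearman correlation was -0.098. The sign of the correlation thus depended on these libraries, and no relation between lncRNA and partner is shown. Lower means were more frequent than higher ones in both lists, so signs can be shared without any relation within pairs. The share to be found on that ground was not computed. By arrangement, the median difference of the lncRNA was -0.09 head-to-head, -0.15 with overlapping 5′ ends, -0.08 in the other 8 pairs and -0.08 without a measured partner. Of the 25 head-to-head lncRNAs, 3 were lower by the study's criterion (12.0%), beside 4.6% of all genes, which is a count of few genes and no result about the arrangement.

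**Figure D4:**
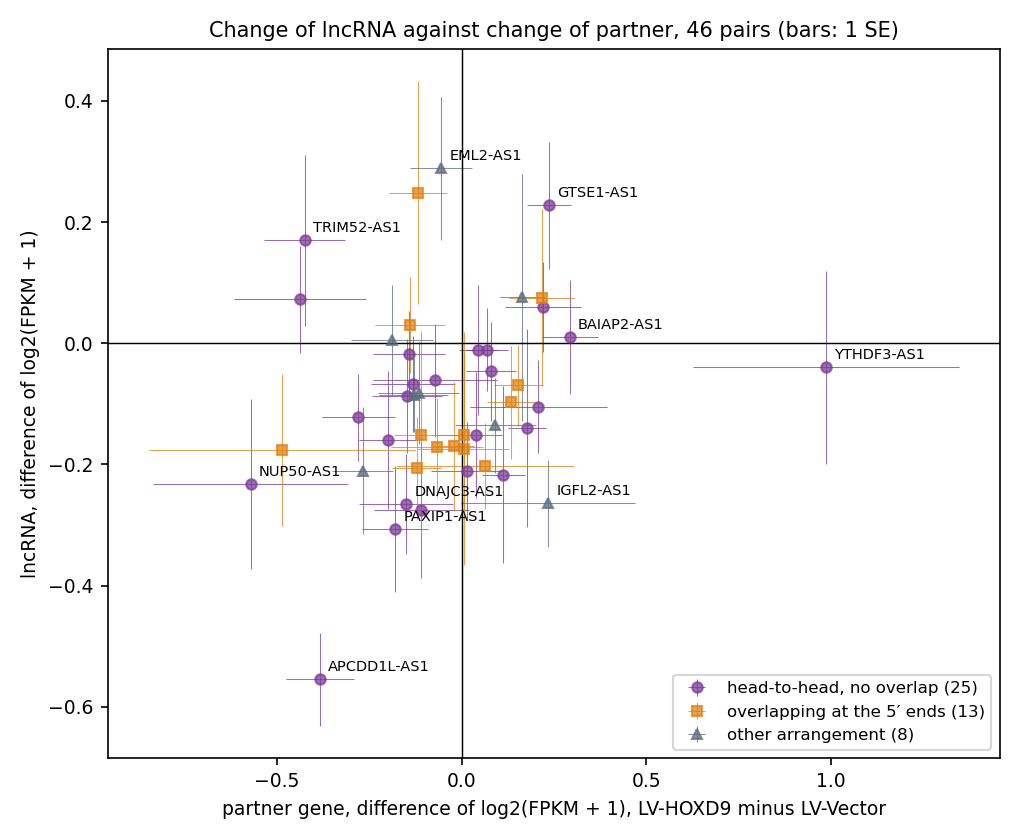
Difference of log2(FPKM + 1), LV-HOXD9 minus LV-Vector, of the partner gene (x axis) and of the lncRNA (y axis) for 46 pairs, with bars of 1 SE from limma and symbols for the arrangement of the 2 genes. APCDD1L-AS1 lies lowest at -0.55 with its partner at -0.38, and 24 of the 46 pairs have the same sign on both axes.

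The log2 ratio of lncRNA to partner within a library does not depend on scaling between libraries beyond the added 1. Its 2 groups did not overlap in 9 of the 46 pairs, a count given as a description. No share was computed for other pairs of genes, and of all single genes 17.5% were lower and 10.9% higher without overlap. The ratio was lower in LV-HOXD9 for APCDD1L-AS1, BAIAP2-AS1, GMDS-AS1, PSMG3-AS1 and SOCS2-AS1, with differences of -0.28 to -0.17. PSMG3-AS1, at 0.497 FPKM (LV-HOXD9) against 0.600 FPKM (LV-Vector), is in the table only through LV-Vector, so its direction is no result. The ratio was higher for EML2-AS1, MAPKAPK5-AS1, MNX1-AS1 and TRIM52-AS1, with differences of 0.16 to 0.59. Each of these had the smallest exact permutation p that 3 libraries against 3 allow, 0.10. For MAPKAPK5-AS1 the groups barely parted, with -1.23 in LV-HOXD9 replicate 3 beside -1.25 in LV-Vector replicate 1. MAPKAPK5-AS1 itself was uneven in LV-HOXD9, at 1.60, 0.826 and 0.563 FPKM. Exons of lncRNA and partner share 792 bases in this pair and 1173 in that of EML2-AS1, so fragments may not have been kept apart. The ratio of BAIAP2-AS1 to BAIAP2 was -0.40, -0.44 and -0.19 in LV-HOXD9 and 0.07, -0.14 and -0.11 in LV-Vector. That of TRIM52-AS1 to TRIM52 was 0.64, 0.57 and 1.21 in LV-HOXD9 and 0.06, 0.49 and 0.09 in LV-Vector. In both pairs the partner had the larger difference. With the same 2 libraries left out, all 9 ratio differences kept their sign, at -0.40 to -0.096 for the lower and 0.23 to 0.53 for the higher ones. The smallest was that of APCDD1L-AS1, -0.096 in place of -0.17. PSMG3-AS1, SOCS2-AS1, MAPKAPK5-AS1 and TRIM52-AS1 are outside the rule for named genes.

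Antisense lncRNAs were measured at low levels, like other genes of their types. Their means over the 6 libraries ranged from 0.441 to 34.7 FPKM with a median of 1.18, where the partner genes had a median of 7.29 and all genes one of 5.44. Of the 58, 25 were under 1 FPKM (43.1%), against 3 of 46 partners, and 2 were over 10 FPKM. The 663 other lincRNA and processed_transcript genes had a median of 1.1 FPKM, with 44.9% under 1 FPKM. The median coefficient of variation among the 3 libraries of a group was 14.8% in LV-HOXD9 and 13.1% in LV-Vector for the lncRNAs, against 9.83% and 8.47% for the partners. LRRC75A-AS1, a host of small nucleolar RNAs now named SNHG29, was highest, at 34.0, 32.6 and 34.3 FPKM (LV-HOXD9) against 34.9, 34.3 and 38.1 FPKM (LV-Vector), which overlapped (difference -0.09, SE 0.06). IGFL2-AS1 followed at 15.8 FPKM over all libraries. Among those that followed were OIP5-AS1 (5.24 ± 1.2 FPKM), NUP50-AS1 (4.29 ± 0.88), URB1-AS1 (4.19 ± 0.82), MNX1-AS1 (4.08 ± 0.29), RPARP-AS1 (3.54 ± 0.23), EPB41L4A-AS1 (3.43 ± 0.54) and BAIAP2-AS1 (3.31 ± 0.30 FPKM, SD over 6 libraries). For these 7 the ranges over libraries of neighbours overlapped, so their order is not firm. EPB41L4A-AS1, another host of a small nucleolar RNA, and RPARP-AS1 overlapped between groups as well (differences -0.04, SE 0.14, and -0.07, SE 0.08). NUP50-AS1 and URB1-AS1, beside genes of the nuclear pore and of ribosome formation, differed by -0.23 (SE 0.14) and -0.22 (SE 0.15), both with overlap. NUP50 itself was at 21.7, 9.18 and 14.6 FPKM (LV-HOXD9) against 21.5, 23.7 and 20.3 FPKM (LV-Vector), so LV-HOXD9 replicate 1 did not share the lower level of the other 2. URB1 was at 12.7 ± 0.32 FPKM against 11.7 ± 0.35 FPKM, higher without overlap.

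In 37 of the 46 pairs the partner had the higher FPKM in all 6 libraries, with a median ratio of partner to lncRNA of 5.91. The ratio was largest for SLC2A1, the glucose transporter GLUT1, whose 108 FPKM were 124 times the 0.877 FPKM of SLC2A1-AS1. In 6 pairs the lncRNA was higher in all 6 libraries, namely ADIRF-AS1, IGFL2-AS1, LRRC75A-AS1, RAB30-AS1, TRIM52-AS1 and USP46-AS1. IGFL2-AS1 stood at 13.5 times the level of IGFL2, and LRRC75A-AS1 at 9.01 times that of LRRC75A. The level of the lncRNA did not follow that of its partner across pairs (Spearman -0.084, n = 46, as a description). SLC2A1, GATA6 and HOXC-AS2 are outside the rule for named genes and were chosen after their values were seen. The lncRNA of the highest head-to-head partner, GATA6-AS1 beside the endodermal transcription factor GATA6 at 48.7 FPKM, had 3.24 FPKM and differed by -0.01 (SE 0.11).

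**Figure D5:**
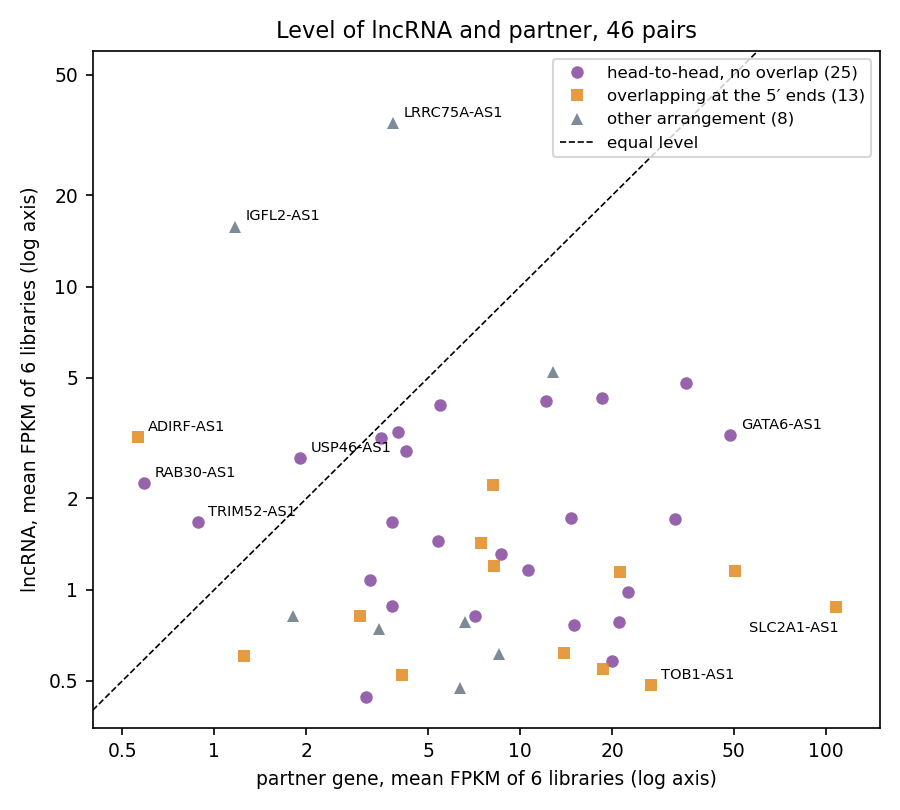
Mean FPKM over the 6 libraries of the partner gene (x axis, log scale) and of the lncRNA (y axis, log scale) for 46 pairs, with symbols for the arrangement and a dashed line at equal level. In 37 pairs the partner is higher in all 6 libraries, and the lncRNAs above the line include LRRC75A-AS1 at 34.7 FPKM and IGFL2-AS1 at 15.8 FPKM.

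The table of transcripts held 80 transcripts of 44 of the lncRNAs, 30 with 1 transcript and 14 with 2 or more. None of the 80 passed an adjusted limma p of 0.05 (lowest 0.688), where 0.0992% of 40304 transcripts did, and 4 were lower and 1 higher at an unadjusted p under 0.05, or 5.00% and 1.25%, beside 3.77% and 3.22% of all transcripts. IGFL2-AS1 had 6 transcripts, the most of any. Its most abundant, IGFL2-AS1-204, was measured at 25.4, 21.4 and 24.9 FPKM (LV-HOXD9) against 28.3, 32.6 and 31.3 FPKM (LV-Vector), without overlap (difference -0.35, SE 0.11). IGFL2-AS1-201 was at 0.691, 0.347 and 10.1 FPKM (LV-HOXD9) against 18.3, 17.6 and 11 FPKM (LV-Vector), a difference of -2.47 (SE 0.83). LV-HOXD9 replicate 3 had a level of this transcript close to that of LV-Vector replicate 3, and without LV-HOXD9 replicate 3 and LV-Vector replicate 2 the difference was -3.34. IGFL2-AS1-203 had the higher level in LV-HOXD9, with a mean of 7.32 FPKM against 5.08 FPKM and overlap (difference 0.41, SE 0.28). Of the 5 transcripts of APCDD1L-AS1, APCDD1L-AS1-202 was at 0.796, 0.507 and 0.859 FPKM (LV-HOXD9) against 1.38, 1.60 and 1.15 FPKM (LV-Vector), without overlap (difference -0.47, SE 0.16). APCDD1L-AS1-201, its most abundant, overlapped, at 1.45 ± 0.49 FPKM against 1.94 ± 0.85 FPKM (SD, n = 3). GMDS-AS1-204 was at 0.00788, 0.831 and 0.349 FPKM against 1.01, 0.951 and 1.31 FPKM, also without overlap. For PAXIP1-AS1 the single transcript equals the gene. The values of the 2 measured transcripts of LRRC75A-AS1 summed to 1.85 FPKM, where its gene value was 34.7 FPKM, so gene and transcript values are not interchangeable. Of 155 partner transcripts, 0 passed the adjusted threshold.

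Across the 6 libraries, the lncRNAs whose log2(FPKM + 1) followed that of PAXIP1-AS1 most closely were DNAJC3-AS1 (Pearson r = 0.977), TOB1-AS1 (0.970), APCDD1L-AS1 (0.876), URB1-AS1 (0.853) and BTG3-AS1 (0.834). This is a description over 6 libraries in 2 groups, in which any genes that differ between the groups in the same direction correlate. EML2-AS1 ran the other way (-0.872). HOXC-AS2, the 1 lncRNA of the 58 from a HOX cluster, stood at 0.657 ± 0.15 FPKM (LV-HOXD9) against 0.545 ± 0.13 FPKM (LV-Vector) (SD, n = 3), with overlap.

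The other 39 lncRNAs had means of 0.441 to 3.24 FPKM over the 6 libraries and differences of -0.21 (PCF11-AS1) to 0.25 (MAPKAPK5-AS1), of which 28 were negative. Their lowest adjusted p from limma was 0.257, and 5 of them were lower without overlap (12.8%). The rule had taken out the lncRNAs with the smallest p. These values are therefore shaped by that choice and cannot be set against the 17.5% of all genes.

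The deposited table lists only genes whose higher group mean reached 0.5 FPKM, and for the antisense lncRNAs the lowest such mean was 0.520 FPKM. For 6 of them 1 group was under that limit, 5 kept by LV-Vector alone, such as TOB1-AS1, and 1, GTSE1-AS1, by LV-HOXD9 alone. Those 6 could not have been kept without a difference between group means, so their direction is no result.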

How the data were processed

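RNA of MKN-74 cells was measured in 6 libraries, 3 of LV-HOXD9 and 3 of LV-Vector. The FPKM values of the gene and transcript tables were used as deposited, and the study's methods give Ballgown as their source. The submitters' processing notes also name cutadapt, FastQC, HISAT2, StringTie and GRCh37, with versions not given in the sources used here. Values were tested as log2(FPKM + 1), so a fold change understates that of low genes. An ordinary linear model gave the study's criterion (unadjusted p under 0.05, fold change over 1.2), and limma 3.58.1 with a mean-variance trend in R 4.3.3 gave p-values adjusted by Benjamini and Hochberg over all 12385 genes or 40304 transcripts. Within-library ratios were compared by a two-sided exact permutation test. limma was tested on simulated data.

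The lncRNAs, gene lists and tests were chosen with earlier results of these data known. Genes were named by rule: the 2 that the study names, those past either threshold, the 10 with the smallest limma p, the 10 highest, pairs with both unadjusted p under 0.05, and the partners of these. Alternatives were a pseudocount of 0.1, a filter at 1 FPKM, equal library sums, quantile normalisation, a replicate block, robust moderation, each library left out, and LV-HOXD9 replicate 3 with LV-Vector replicate 2 left out. Removal of GC and length trends by loess (span 0.5, GENCODE 29) was added after seeing the data, as were ratios, pair signs and 1 transcript without those 2 libraries. Promoters came from RefSeq (GRCh38.p14) and were matched by gene, and no coordinates were converted between builds. Python 3.11.15 with pandas 2.3.3, scipy 1.17.1 and matplotlib 3.10.9 was used. The values of 1 lncRNA named by the rule and of the immune markers are not reported here.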

Additional observations from a re-analysis of the deposited data

How the results depend on the processing

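By the study's criterion, 4 lncRNAs were lower. The count was 7 with a pseudocount of 0.1, 2 with quantile normalisation, 2 with the replicate block and 1 with the GC and length trends removed, and 2 to 5 with 1 library left out, the 2 arising without LV-HOXD9 replicate 2, LV-Vector replicate 1 or LV-Vector replicate 3. The count of higher lncRNAs, 0, became 1 with quantile normalisation and 0 to 1 with 1 library left out. Of the partners, 3 were lower. The count was 0 with quantile normalisation, 1 with the replicate block, 1 without LV-HOXD9 replicate 3 and LV-Vector replicate 2, and 1 to 3 with 1 library left out. The 1 higher partner became 0 with equal library sums, 0 without those 2 libraries, 3 with the GC and length trends removed, and 1 to 3 with 1 library left out. Past the adjusted limma threshold, the counts of 0 became 1 lncRNA (APCDD1L-AS1) and 2 partners (APCDD1L and MNX1) with the trends removed. In that setting 310 of all genes passed in place of 25. The median difference of the lncRNAs, -0.09, was -0.18 with a pseudocount of 0.1, -0.13 with equal sums and -0.0085 with quantile normalisation. It was -0.11 without LV-HOXD9 replicate 3 and LV-Vector replicate 2, and -0.11 to -0.082 with 1 library left out. That of the partners, -0.06, was -0.12 with equal sums, 0.030 without the 2 libraries, 0.018 with the trends removed, and -0.075 to 0.0097 with 1 library left out. The cause of these shifts was not tested.

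Deviations of same-numbered libraries correlated at -0.17, 0.17 and -0.01. Correlations between libraries of different number were not computed, so these values cannot decide whether the replicate numbers pair the libraries. With the block, 3 of all genes passed the adjusted limma threshold. For the single named genes, 404 values kept side and direction, 29 lost the study's criterion, 13 gained it, and 25 changed sign with no call in the main test. Over all genes the criterion gave 570 lower and 240 higher, 857 and 311 with a pseudocount of 0.1, 784 and 113 with equal sums, 330 and 315 with quantile normalisation, 329 and 163 with the block, and 352 and 258 with the trends removed. The count of 25 genes past the adjusted threshold was 4 to 25 with 1 library left out and 9 without the 2 libraries. Without counts, depth could not be used to judge lncRNAs under 1 FPKM.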
